A study of Oryza sativa with 4 samples.

Results

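Of 55986 rice genes in an RNA-sequencing table of the palea, 20675 had a mean of at least 1 FPKM over 4 genotypes, and 209 of these were at least 4-fold lower in the rep1 library than in any other library. The authors deposited FPKM values, in which the fragments of a gene are divided by transcript length and library depth. The 209 genes were chosen by these values. For each genotype the 2 columns of the table were averaged, and a gene was taken when log2((rep1 + 1)/(lowest of the 3 others + 1)) was -2 or less. The low level in rep1 is therefore how the genes were found. It is described here without a test, as are comparisons that use the same values. The share of genes taken was 1.01% of the genes kept.

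The palea is the smaller, inner bract of the rice flower and faces the lemma. The wild type (WT) and rep1 samples were labelled as japonica rice. The Osmads6 sample, a Tos17 retrotransposon insertion line, was labelled Nipponbare, and the Osmads32 sample, a T-DNA insertion line, was labelled AF36. The rep1 line carries a deletion. REP1 is a TCP-family regulator of the palea, while OsMADS6 and OsMADS32 are MADS-box regulators of floral organs. All plants were grown in a paddy field, and background and genotype cannot be told apart. The labels list 1 sample per genotype, while the table has 2 columns for each, and neither says whether these are separate plants or repeat sequencing. They were treated as 2 runs of 1 sample, so that n = 1, their spread may be technical, and no difference between genotypes was tested. If they are separate plants, n would be 2 and a test could be made. The developmental stage was not given in the sources used here. Recovered depth ran from 34011366 to 49726356 reads per run.

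The rice floret carries its stamens and carpel inside the lemma and palea, which lock together as a hull and set the space in which the grain grows. Both bracts have silica-rich outer epidermis, and the palea is distinguished by its marginal tissue, fewer vascular bundles and a set of regulators that it does not wholly share with the lemma. YABBY, MADS-box and TCP transcription factors pattern these organs, and their growth depends on cell division followed by wall loosening and expansion. In whole-organ RNA, fewer cells of a type and less RNA per cell cannot be told apart.

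The levels of the targeted genes went partly against the labels. OsMADS6 was at 12.5 and 14.4 FPKM in the 2 runs labelled WT and at 124 and 130 FPKM in those labelled Osmads6. It was at 257 and 267 FPKM in Osmads32 and highest in rep1, at 826 and 858 FPKM. OsMADS32 was at 8.32 FPKM on average in the library labelled Osmads32 against 7.19 FPKM in that labelled WT. REP1 itself was near absent everywhere, at 4 and 11 reads in the WT runs, 4 and 6 in Osmads6, 2 and 4 in Osmads32, and 2 and 0 in rep1, so its level checks no label. The names WT, Osmads6, Osmads32 and rep1 in what follows stand for the libraries labelled so. Exchanging the libraries labelled WT and Osmads6 leaves the 209 genes as they are, since the rule treats the 3 other libraries alike, but it turns every comparison between those 2 libraries.

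The palea label was set against marker lists. Anther and tapetum genes, 12 listed and none among the 209, summed to 280 and 268 FPKM in the WT runs, 332 and 320 FPKM in rep1, 212 and 244 FPKM in Osmads32, and 55.8 and 56.2 FPKM in Osmads6, where the tapetum gene RTS was listed at 0. A further listed locus, whose symbol could not be checked, was at 0 in all 4 libraries. The sum was carried mainly by RTS, at 116 FPKM in WT, 91.1 FPKM in Osmads32 and 183 FPKM in rep1, and by OsC6, a tapetum lipid transfer protein gene, at 87.1 FPKM in WT, 0.551 FPKM in Osmads6, 73.5 FPKM in Osmads32 and 79.5 FPKM in rep1. Carpel and ovule genes, 5 listed, summed to 26.9 and 28.6 FPKM in rep1, within the 20.2 to 29.6 FPKM of the WT runs, against 87.0 and 92.4 FPKM in Osmads32 and 23.5 and 18.8 FPKM in Osmads6. The similar sums of rep1 and WT were made up of different genes. DL was at 0.499 FPKM in rep1 and 19.1 FPKM in WT, while MADS3 and MADS13 were higher in rep1, as given below. Meristem genes of the KNOX family, 6 listed, summed to 95.0 and 92.1 FPKM in rep1, above the 46.9 and 39.0 FPKM of Osmads32, the 28.6 and 23.6 FPKM of WT and the 13.7 and 15.97 FPKM of Osmads6. Photosynthesis genes, 7 listed, summed to 2274 and 2210 FPKM in rep1, inside the WT range of 1983 to 2734 FPKM, with 1254 and 1317 FPKM in Osmads32 and 335 and 380 FPKM in Osmads6. DL was the only gene of these 4 lists among the 209. The part of these lists in the results was not tested.

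As a group, the 209 genes were well expressed outside rep1. Their median level was 30.5 FPKM in WT, 48.5 FPKM in Osmads6 and 30.6 FPKM in Osmads32, against 2.51 FPKM in rep1. Over all genes kept the medians were close together, at 9.16, 9.33, 8.76 and 8.02 FPKM in the same order. The middle of the group in rep1, from the lower to the upper quartile, lay between 0.752 and 5.99 FPKM, below the WT quartiles of 13.4 and 67.0 FPKM. Together the genes held 3.41% of all FPKM in WT, 6.28% in Osmads6 and 3.60% in Osmads32, but 0.301% in rep1. The median log2 ratio of rep1 was -2.93 to WT, -3.54 to Osmads6 and -2.96 to Osmads32. The corresponding medians over all genes kept were -0.15, -0.14 and -0.10.

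The same rule applied to the other libraries took fewer genes. Osmads6 was lowest by 4-fold for 62 genes, Osmads32 for 9 and WT for 2. In rep1, 63 of the 209 genes had a ratio of -3 or less on the log2 scale, 18 had -4 or less and 4 had -5 or less, while 146 lay between -3 and -2. The 3 genes just inside the threshold had ratios of -2.013, -2.009 and -2.008, and the 3 just outside had -1.996, -1.993 and -1.989, so the edge of the set does not mark a gap in the values. A rep1 mean under 1 FPKM was found for 66 genes and one of at least 10 FPKM for 31. In all 209 genes both rep1 runs were below all 6 other runs, which was also so for 26.6% of all genes kept. On the scale of log2(FPKM + 1), the median difference of these genes between runs of one library was 0.31 in WT, 0.11 in Osmads6, 0.12 in Osmads32 and 0.18 in rep1. On that scale, runs differed by at least 2-fold for 12 genes in WT, 1 in Osmads6, 2 in Osmads32 and 0 in rep1. The run differences were not computed over all genes kept, so they do not show whether the 209 genes vary more or less than others. The added 1 FPKM hides differences between low values, and rep1 runs of single genes, SL1 among them, were more than 2-fold apart without it.

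**Figure D1:**
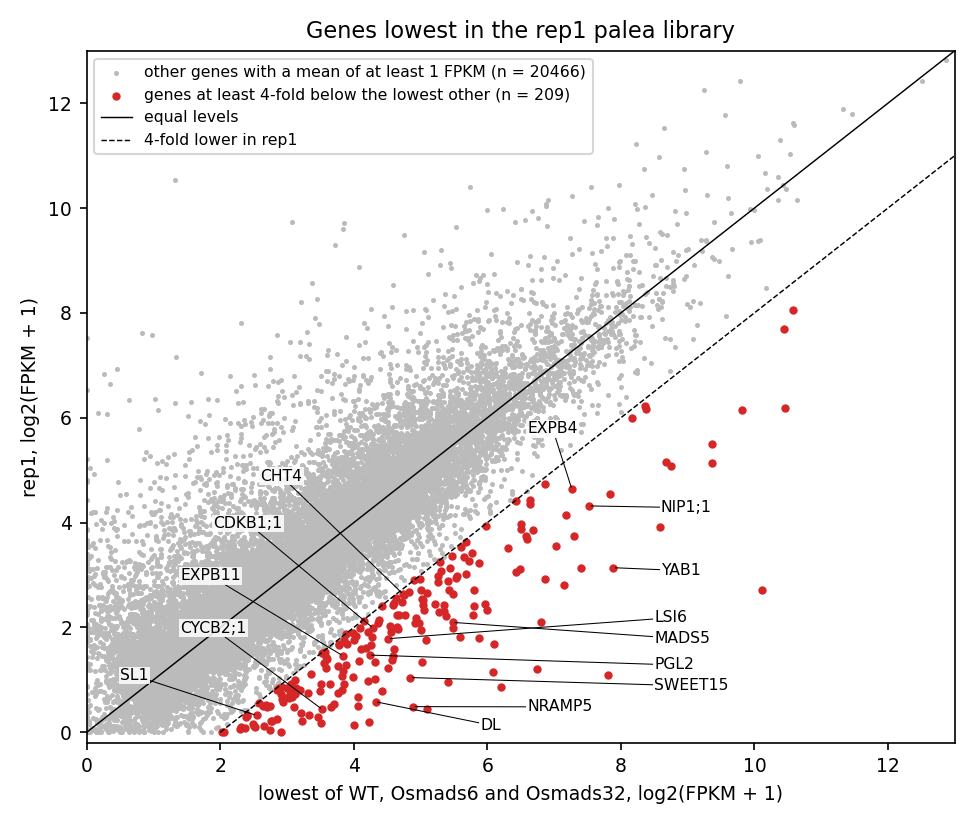
Mean level of each of 20675 genes in the rep1 library (vertical axis) against the lowest of the WT, Osmads6 and Osmads32 means (horizontal axis), both as log2(FPKM + 1). The 209 genes taken by the rule are red and lie on or below the dashed line of a 4-fold lower level, with the 14 named genes marked.

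The low values in rep1 rested on counted reads for most of the genes. Whole read numbers could be recovered for all 209, and the median gene had 286 reads in the rep1 runs together against 4518 in the WT runs. These are the smallest whole numbers that fit the values of a gene, so they are known only up to a common factor. For 7 genes rep1 held 3 reads or fewer in all. Of these, 3 were at 0 in both rep1 runs. Set against a floor of 3 reads per run, which covers counting error only, they were at least 55.1-fold, 28.5-fold and 3.97-fold lower than the lowest other library.

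Regulators of floral organs among the members were YAB1, DL, MADS5 and SL1, with log2 ratios of -4.75, -3.74, -3.39 and -2.22, where the median of the 209 was -2.58. YAB1 (LOC_Os07g06620), a YABBY transcription factor that has been linked to supporting cell types of leaf and bract and to gibberellin synthesis, was at 290 and 369 FPKM in WT. It was at 222 and 249 FPKM in Osmads6, at 338 and 383 FPKM in Osmads32, and at 8.57 and 7.07 FPKM in rep1. The 6 other runs stayed within 2-fold of each other and the rep1 runs were far below them. Taken as ratios of means, WT was 42.1-fold, Osmads6 30.1-fold and Osmads32 46.1-fold above rep1. The rep1 values rested on 450 and 351 reads.

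DL (LOC_Os03g11600), the YABBY gene DROOPING LEAF, specifies carpels and the leaf midrib, and is known from the lemma rather than the palea. Its level was 24.5 and 13.6 FPKM in WT, 21.6 and 17.6 FPKM in Osmads6 and 53.7 and 57.4 FPKM in Osmads32. In rep1 it was 0.617 and 0.381 FPKM, from 24 and 14 reads. The rep1 runs lay below all others, the WT and Osmads6 runs overlapped, and the Osmads32 runs were highest, 2.92-fold above WT on average. Other carpel and ovule genes did not share the low level in rep1. MADS3 was at 14.8 FPKM in rep1 and 4.82 FPKM in WT, and MADS13 was at 10.8 FPKM in rep1 and 0.557 FPKM in WT.

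MADS5 (LOC_Os06g06750) is a SEPALLATA-like MADS-box gene, a class that acts with other floral MADS-box genes in organ identity. Its level was 36.4 and 57.9 FPKM in WT, 43.1 and 46.7 FPKM in Osmads6 and 47.7 and 39.8 FPKM in Osmads32, against 3.46 and 3.10 FPKM in rep1. The runs of the 3 other libraries overlapped throughout, and their means were 13.3-fold to 14.4-fold above rep1. MADS5 was alone among the floral MADS-box genes in passing the 4-fold threshold, 1 of 20 kept. The related MADS1 was at 293 FPKM in rep1 against 393 to 635 FPKM in the other libraries, and MADS34 at 2.99 FPKM was between the 1.87 FPKM of Osmads32 and the 8.74 FPKM of WT. Reads of closely similar MADS-box paralogs may have been split between them, which adds uncertainty to these levels.

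SL1 (LOC_Os01g03840), or STAMENLESS1, is a zinc finger gene that acts in the identity of lodicules and stamens. It was at 4.08 and 5.59 FPKM in WT, 21.1 and 22.8 FPKM in Osmads6, 7.36 and 7.06 FPKM in Osmads32 and 0.0532 and 0.449 FPKM in rep1. Only 2 and 16 reads stood behind the rep1 values. The libraries did not overlap, and Osmads6 was highest, 4.55-fold above WT.

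Among genes of the cell cycle, a mitotic cyclin and a plant-specific kinase were members. CYCB2;1 (LOC_Os04g47580), a B-type cyclin of the entry into mitosis, was at 11.4 and 12.8 FPKM in WT, 10.9 and 10.2 FPKM in Osmads6, 12.05 and 15.1 FPKM in Osmads32 and 0.463 and 0.245 FPKM in rep1. The 6 other runs lay within 2-fold of each other, and rep1 was 29.8-fold to 38.3-fold below them. CDKB1;1 (LOC_Os01g67160), a B-type cyclin-dependent kinase, was at 22.5 and 50.7 FPKM in WT, so that its WT runs differed by more than 2-fold. Its level was 23.1 and 22.9 FPKM in Osmads6, 17.5 and 19.7 FPKM in Osmads32 and 2.41 and 3.52 FPKM in rep1, 6.26-fold to 12.3-fold below the other means.

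Of 29 cell cycle genes listed, 19 were kept, and 16 of these were not 2-fold below the lowest other library. Besides the 2 members, 1 gene was, a listed locus whose symbol could not be checked. It was at 0.232 FPKM in rep1 against 2.01 to 3.68 FPKM in the others, 8.69-fold below the lowest of them, with a log2 ratio of -1.29 after the added 1 FPKM. The median log2 ratio of the 19 was -0.25, with 0.12 over all genes kept. The mitotic cyclin CYCB1;1 was at 0.548 FPKM in rep1 and 0.668 FPKM in WT, and the kinase CDKB2;1 was at 1.43 and 1.22 FPKM. A gene under 1 FPKM in another library, as CYCB1;1 was in WT, cannot be 2-fold lower once 1 FPKM is added. The count of 16 may therefore include genes that could not pass, however low they were in rep1. PCNA, the sliding clamp of DNA replication, was at 12.2 FPKM in rep1 and 12.9 FPKM in WT. The replication helicase gene MCM7 was at 0.446 FPKM in rep1 and 1.502 FPKM in WT, with a log2 ratio of -0.79 to the lowest other library.

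PGL2 (LOC_Os02g51320) encodes a small helix-loop-helix protein that lacks DNA binding and promotes grain length when expressed in the hull. It was at 20.5 and 15.2 FPKM in WT, 49.4 and 41.2 FPKM in Osmads6, 50.6 and 55.95 FPKM in Osmads32 and 2.26 and 1.30 FPKM in rep1. WT was lowest of the 3 others and 10.04-fold above rep1, whereas Osmads6 and Osmads32 were 25.5-fold and 30.0-fold above it. Of 22 grain and hull size genes listed, 18 were kept and PGL2 alone passed the 4-fold threshold. SPL16, a grain width regulator of the SBP family, came close, with a log2 ratio of -1.95.

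Transporters formed another part of the named members. LSI6 (LOC_Os06g12310) is a silicon channel of leaf and node that governs how much silicon reaches the hull. It was at 49.7 and 42.1 FPKM in WT, 21.9 and 21.96 FPKM in Osmads6, 74.7 and 82.2 FPKM in Osmads32 and 2.71 and 2.20 FPKM in rep1. The 4 libraries did not overlap, in the order Osmads32, WT, Osmads6 and rep1. The root silicon transporter genes LSI1 and LSI2 were below the minimum mean, LSI1 at 0.666 FPKM in rep1 and LSI2 at 0.0348 FPKM.

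A further 6 genes were named after their values had been seen, and their choice says nothing of the set. NRAMP5 (LOC_Os07g15370), known as the manganese and cadmium uptake transporter of the root, was at 39.4 and 42.2 FPKM in WT, 28.7 and 28.3 FPKM in Osmads6, 36.6 and 42.8 FPKM in Osmads32 and 0.296 and 0.514 FPKM in rep1. Its means were 70.3-fold to 101-fold above rep1, and as a ratio of mean FPKM the gap to the lowest other library was the widest of the 14 named genes, while on the log2 scale with 1 FPKM added that of YAB1 was wider. NIP1;1 (LOC_Os02g13870), a channel of the aquaporin family, was abundant, at 316 and 213 FPKM in WT, 573 and 619 FPKM in Osmads6, 188 and 178 FPKM in Osmads32 and 18.9 and 19.0 FPKM in rep1. The Osmads6 runs were highest and the gap to rep1 ran from 9.66-fold for Osmads32 to 31.5-fold for Osmads6. SWEET15 (LOC_Os02g30910), a sucrose transporter of grain filling, was at 28.7 and 26.9 FPKM in WT, 35.6 and 44.0 FPKM in Osmads6, 68.7 and 69.8 FPKM in Osmads32 and 1.28 and 0.852 FPKM in rep1. For SWEET15 it was Osmads32 that was highest, 65.1-fold above rep1.

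Wall-loosening genes were also present. EXPB4 (LOC_Os10g40730), a beta-expansin, was at 181 and 125 FPKM in WT, 239 and 220 FPKM in Osmads6, 244 and 251 FPKM in Osmads32 and 25.3 and 22.5 FPKM in rep1. The related EXPB11 (LOC_Os02g44108) was at 10.6 and 15.96 FPKM in WT, 15.4 and 16.1 FPKM in Osmads6, 14.9 and 16.2 FPKM in Osmads32 and 1.69 and 1.82 FPKM in rep1. For EXPB4 the WT runs were below those of Osmads6 and Osmads32, and the means were 6.40-fold to 10.4-fold above rep1. For EXPB11 the runs of the 3 other libraries overlapped, and the means were 7.56-fold to 8.98-fold above rep1. None of the 4 alpha-expansins listed was a member. CHT4 (LOC_Os04g41620), a chitinase, was at 78.4 and 53.2 FPKM in WT, 95.1 and 89.9 FPKM in Osmads6, 26.9 and 24.5 FPKM in Osmads32 and 5.45 and 5.00 FPKM in rep1. Here Osmads32 was the nearest to rep1, at 4.92-fold.

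**Figure D2:**
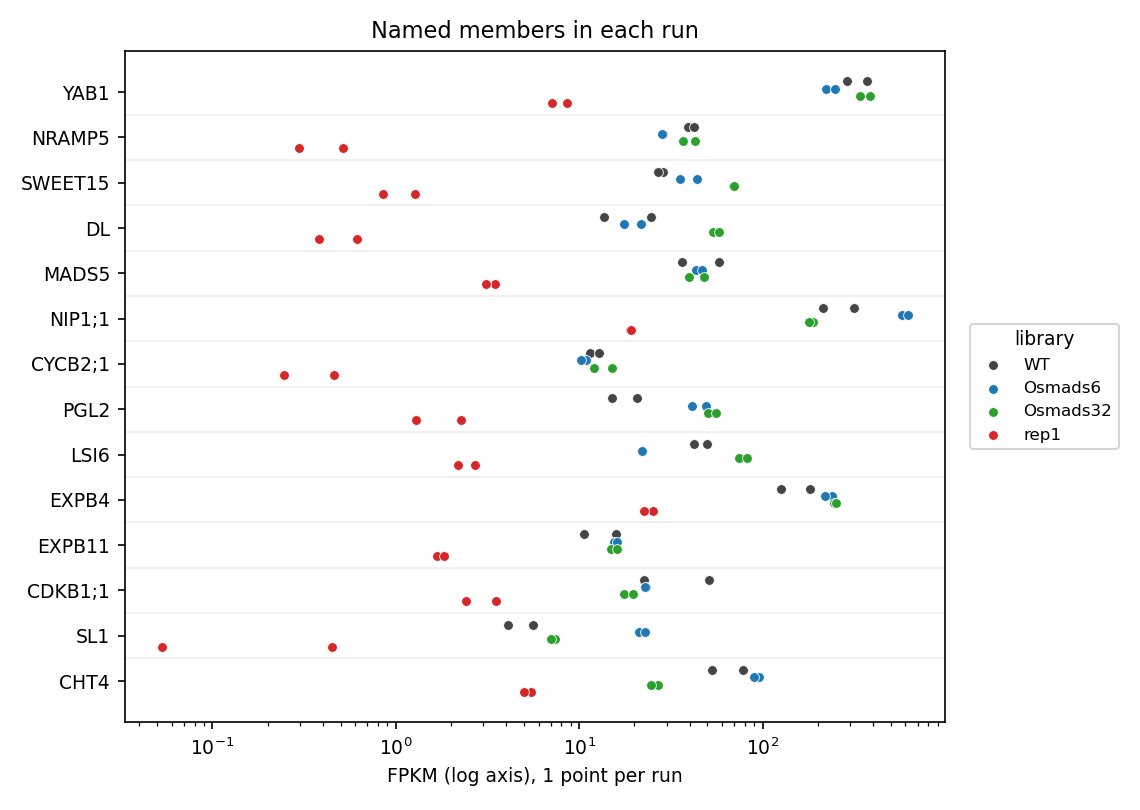
Level of the 14 named genes in each of the 8 runs, in FPKM on a log axis, with a point per run and a colour per library. The rep1 points are left of all others in every gene, from 0.0532 FPKM for SL1 to 25.3 FPKM for EXPB4.

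The table gives no names for most of the set, and 195 of the 209 genes stay unnamed here. The largest ratio belonged to LOC_Os10g05930, at 1222 and 1001 FPKM in WT, 1661 and 1857 FPKM in Osmads6, 1265 and 1334 FPKM in Osmads32 and 3.83 and 7.32 FPKM in rep1. LOC_Os10g05820 followed, at 285 and 162 FPKM in WT, 648 and 605 FPKM in Osmads6, 282 and 268 FPKM in Osmads32 and 1.14 and 1.15 FPKM in rep1. Their WT means were 199-fold and 195-fold above rep1, and the rep1 values rested on 444 and 804 reads for the first and 46 and 44 for the second.

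The fixed gene lists placed 11 of their genes in the set. The YABBY family had 2 of 7 genes kept, YAB1 and DL, and the spikelet and floral meristem list had 1 of 5, SL1. Silicon transport had its single gene kept, LSI6, and cuticle and wax had 3 of 9, none of whose symbols could be checked, so that they are only counted. The lists of TCP, growth-regulating factor, epidermal HD-ZIP IV, expansin, organ polarity, auxin, gibberellin, brassinosteroid, cytokinin, KNOX, secondary wall, primary wall cellulose synthase, photosynthesis and anther genes had none. With 1 FPKM added, a gene that is low in any of the 3 other libraries cannot pass, however low it is in rep1. SLL1 and TF1 were such genes, with the lowest other library 9.91-fold and 4.29-fold above rep1 as plain ratios. Of all genes kept 1.01% were members, a share that also counts genes too low to pass. With so few genes per list these counts are a description of the lists and no more.

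At a 2-fold difference from the lowest other library, which 5.05% of all genes kept reached, the lists gave a wider view. The YABBY list had 3 of 7 genes, with a median log2 ratio of -0.68, and YAB3 joined YAB1 and DL at 6.41 FPKM in WT, 23.998 FPKM in Osmads6, 7.84 FPKM in Osmads32 and 1.52 FPKM in rep1. YAB2 was even, at 86.8 FPKM in rep1 and 87.7 to 96.1 FPKM elsewhere. The floral MADS-box list had 3 of 20, MADS5, MADS15 and OsMADS32, with a median of 0.49. Against WT alone, 7 of the 20 were at least 2-fold higher in rep1, where 5.13% of all genes kept were, and 5 were at least 2-fold lower, where 8.78% were. MADS15, an APETALA1-like gene of bract identity, was at 25.1 FPKM in rep1 and 72.6 to 104 FPKM in the others.

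Organ polarity genes had 2 of 5 at that level, with a median of -0.72. HB2, a class III HD-ZIP gene of the upper organ side, was at 103 FPKM in WT, 54.3 FPKM in Osmads6, 49.8 FPKM in Osmads32 and 18.1 FPKM in rep1. SLL1, a KANADI gene of the lower side, was at 0.251 FPKM in rep1 and 2.49 to 4.04 FPKM in the others. Epidermal HD-ZIP IV genes had 2 of 9, ROC5 and TF1, with a median of -0.04. ROC5 was at 5.55 FPKM in rep1 and 13.6 to 46.2 FPKM in the others, and TF1 at 0.657 FPKM and 2.82 to 5.99 FPKM.

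Wall and growth genes of the lists reached the same level in single cases. EXPA4, an alpha-expansin, was at 4.43 FPKM in rep1 and 13.3 to 23.0 FPKM elsewhere, 1 of 4 expansins kept. CESA1, a subunit of primary wall cellulose synthase, was at 115 FPKM in rep1 against 294 to 335 FPKM, and was 1 of 3 such subunits. PCF6, a TCP gene, was at 1.35 FPKM in rep1 and 4.15 to 8.68 FPKM elsewhere, 1 of 4 TCP genes kept. Cuticle and wax genes had 4 of 9 and gibberellin genes 1 of 4. None of the 7 growth-regulating factors kept, the 4 auxin or the 3 brassinosteroid genes was 2-fold below the lowest other library.

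Secondary wall genes lay the other way. All 7, which make the cellulose and lignin of thickened walls, were at least 2-fold higher in rep1 than in WT, as were 5.13% of all genes kept. Their median log2 ratio was 2.88 to the lowest other library and 1.47 to WT. CESA4, a subunit of secondary wall cellulose synthase, was at 1145 FPKM in rep1, 440 FPKM in WT, 119 FPKM in Osmads6 and 660 FPKM in Osmads32. KNOX genes had medians of 1.95 to the lowest other library and 1.66 to WT, with 3 of 4 at least 2-fold higher than in WT. Photosynthesis genes had a median of 2.45 to the lowest other library but -0.44 to WT. Of these 7 genes, 0 were at least 2-fold higher in rep1 than in WT and 2 were at least 2-fold lower, where 8.78% of all genes kept were.

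The levels of the 209 genes outside rep1 were not even, and the rule fixed only their lowest value. The 3 other libraries lay within 2-fold of each other for 102 genes, 48.8%, against 78.9% of all genes kept. By the rule the members were at 3.09 FPKM or more in each of these libraries. All genes kept include lower ones, whose ratios the added 1 FPKM makes smaller. Shares over all genes kept, here and below, were not matched for level. In 19 genes the spread among them was larger than the gap from the lowest of them to rep1. Osmads6 was the highest of the 3 for 139 genes, 66.5% against 40.1% of all genes kept. Osmads32 was highest for 44, 21.1% against 26.6%, and WT for 26, 12.4% against 33.3%. The rule took genes by the lowest of the 3, and this lowest library was WT for 88 genes, Osmads32 for 81 and Osmads6 for 40. The shares over all genes kept were not computed for these lowest counts.

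Against the library labelled WT, that labelled Osmads6 was at least 2-fold higher for 73 of the 209 genes, 34.9%, where 7.7% of all genes kept were. The part that the higher level of the 209 genes has in this difference was not tested. It was at least 4-fold higher for 26 genes, 12.4% against 1.41%, and at least 2-fold lower for 14 genes, 6.70% against 7.47%. The other 122 genes were within 2-fold. The median log2 ratio was 0.62, and that of all genes kept was -0.005. SL1, PGL2 and NIP1;1 were among the 73, at 4.55-fold, 2.54-fold and 2.26-fold, and LSI6 was among the 14, with WT 2.09-fold above Osmads6. The 73 genes had median levels of 23.6 FPKM in WT, 110 FPKM in Osmads6, 26.6 FPKM in Osmads32 and 1.86 FPKM in rep1. The 14 lower genes had 57.3, 17.5, 49.0 and 1.93 FPKM in the same order. The widest differences went both ways. An unnamed member of chromosome 3 was at 136 FPKM in Osmads6 and 7.29 FPKM in WT, 18.7-fold apart, with 5.78 FPKM in Osmads32 and 0.170 FPKM in rep1. An unnamed member of chromosome 6 was at 31.6 FPKM in Osmads6 and 298 FPKM in WT, 9.41-fold apart, with 290 FPKM in Osmads32 and 4.87 FPKM in rep1. The 122 even genes had median levels of 31.3, 41.0, 32.1 and 3.03 FPKM.

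The library labelled Osmads32 was closer to WT. It was at least 2-fold higher for 8 genes, 3.83% against 1.81% of all genes kept, and at least 2-fold lower for 10 genes, 4.78% against 3.34%. For 191 genes it was within 2-fold, and the median log2 ratio was 0.05, with -0.03 over all. DL, SWEET15 and PGL2 were among the 8 and CHT4 among the 10. Both comparisons share the WT library. Osmads6 set against Osmads32 instead was at least 2-fold higher for 74 genes, 35.4% against 7.61%, and at least 2-fold lower for 14, 6.70% against 5.98%. The Osmads6 library was also the lowest in the summed anther and tapetum, photosynthesis and KNOX lists, whose part in these counts was not tested. If the libraries labelled WT and Osmads6 are exchanged, Osmads6 is higher for 14 genes and lower for 73, and Osmads32 is higher for 14 and lower for 74.

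**Figure D3:**
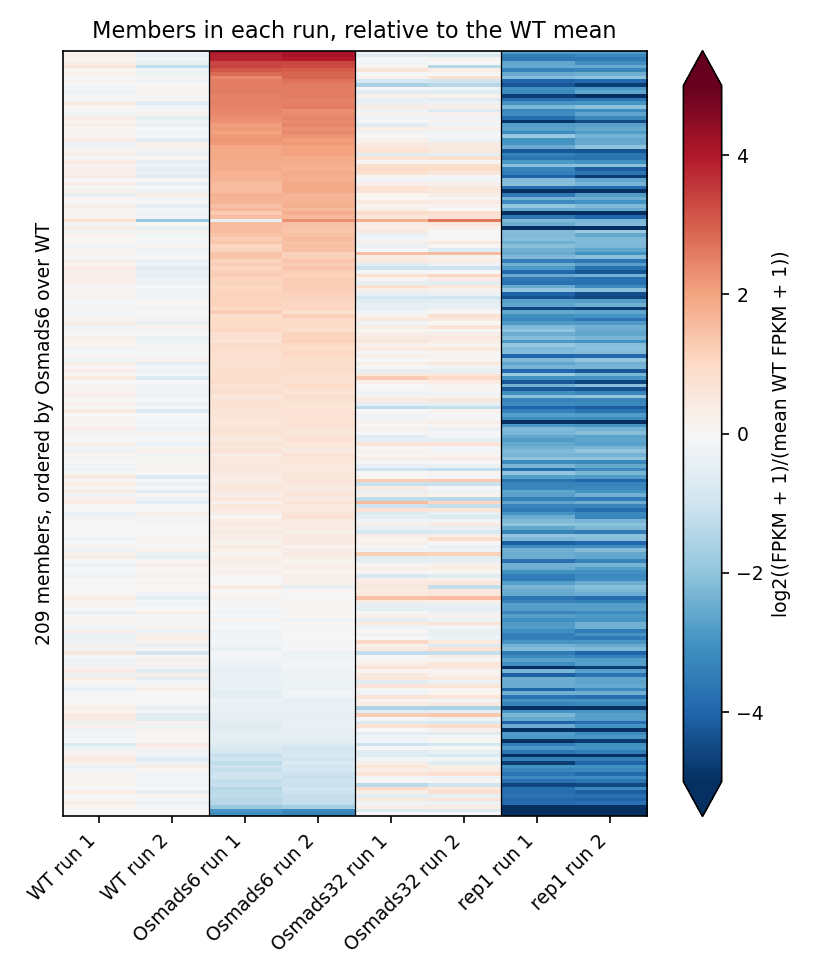
Level of the 209 genes in each of the 8 runs as log2((FPKM + 1)/(mean WT FPKM + 1)), with genes as rows ordered by the Osmads6 over WT ratio and colour from blue (lower than WT) to red (higher). Both rep1 columns are blue throughout, and the upper rows, with 73 genes at least 2-fold higher, are red in both Osmads6 columns.

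**Figure D4:**
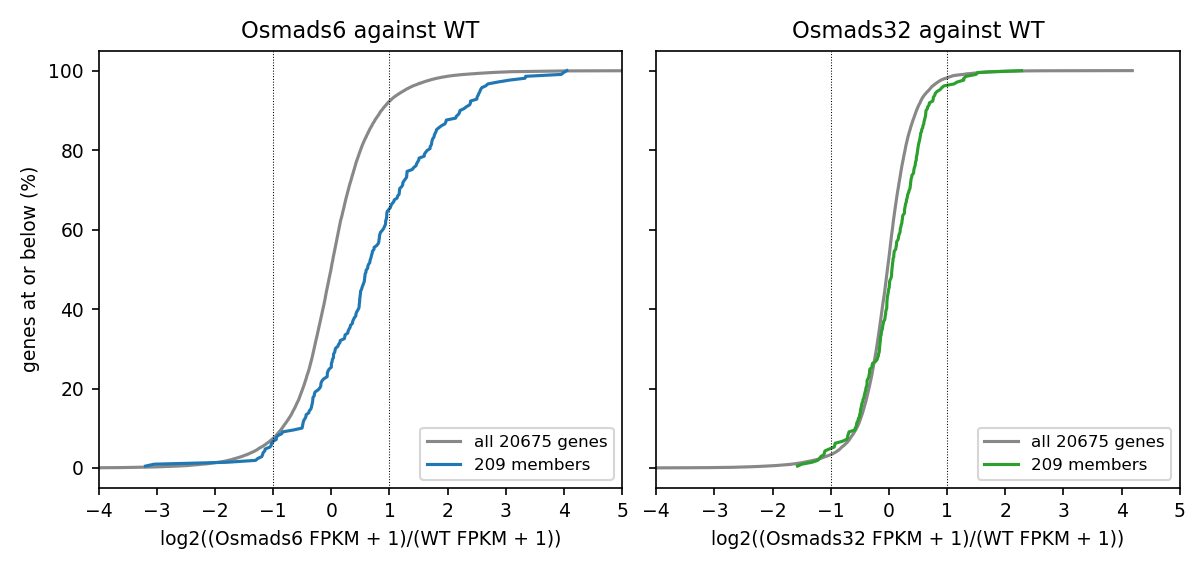
Cumulative share of genes by log2 ratio of Osmads6 to WT (left) and of Osmads32 to WT (right), for the 209 genes in colour and all 20675 genes kept in grey, with dotted lines at 2-fold. The coloured curve is shifted to the right for Osmads6, with a median of 0.62, and lies near the grey curve for Osmads32, with a median of 0.05.

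Position on the chromosomes was not used by the rule. The genes lay on all 12 chromosomes, and their share of the genes kept ran from 0.579% on chromosome 7 to 1.66% on chromosome 10, where 18 of 1087 were members. Another member stood within 5 loci for 23 of the 209 genes, 11%, and a member stood that near for 4.38% of all genes kept. A stretch on chromosome 10 held 10 of these 23 genes and 10 of the 18 members of that chromosome. It thus carried much of both values, and the shares without it were not computed.

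The longest stretch was on chromosome 10, where 10 members fell in 16 consecutive loci. Both unnamed genes given above belong to it. Of the 12 genes kept there, the 2 that were no members had log2 ratios of -0.52 and -0.43. The added 1 FPKM makes the second ratio small. That gene was at 0.0282 FPKM in rep1, against 0.928 FPKM in WT, 26.4 FPKM in Osmads6 and 0.389 FPKM in Osmads32. The 10 genes ranged from 20.4 to 1521 FPKM in WT, 73.6 to 2423 FPKM in Osmads6, 33.3 to 2218 FPKM in Osmads32 and 0.360 to 266 FPKM in rep1, with log2 ratios from -7.40 to -2.51. In rep1 they were thus low to different degrees, and the 10 included the highest rep1 level of all 209 genes. In 5 of the 10 the Osmads6 level was at least 2-fold above WT, where it was for 34.9% of the 209 genes and 7.7% of all genes kept. With so few genes this count is a description only. The 10 genes kept within 20 loci on either side had ratios of -0.74 to 6.29. All but 1 of them lay before the first member. The gene kept past the last member was at 28.7 FPKM in rep1 and 23.6 FPKM in WT. The added 1 FPKM again makes ratios of low genes small. The gene at -0.74 was at 0.233 FPKM in rep1, against 1.06 FPKM in Osmads6, the lowest other library. Past the last member, a locus not kept was at 0.0169 FPKM in rep1 and 0.393 FPKM in Osmads32. How far low rep1 levels reach beyond the stretch was not tested. Neighbouring genes that are near copies of each other can share reads, which was not examined here.

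On chromosome 11, 3 members fell in 5 consecutive loci, at 54.2 to 854 FPKM in WT and 3.72 to 70.8 FPKM in rep1. In Osmads6 they ranged from 331 to 1882 FPKM, with 2 of the 3 at least 2-fold above WT. That was so for 34.9% of the 209 genes and 7.7% of all genes kept. The others were 5 pairs, of which 2 were on chromosome 4 and 1 each on chromosomes 1, 3 and 9. CHT4 was part of a chromosome 4 pair, whose other gene was unnamed. Around REP1 on chromosome 9, the line's deleted gene by its label, no member lay near. The nearest was 125 loci away, and the 21 genes kept within 20 loci had log2 ratios of -0.41 or more. This place of REP1 is from published nomenclature, while the check of symbols matched REP1 on another chromosome.

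**Figure D5:**
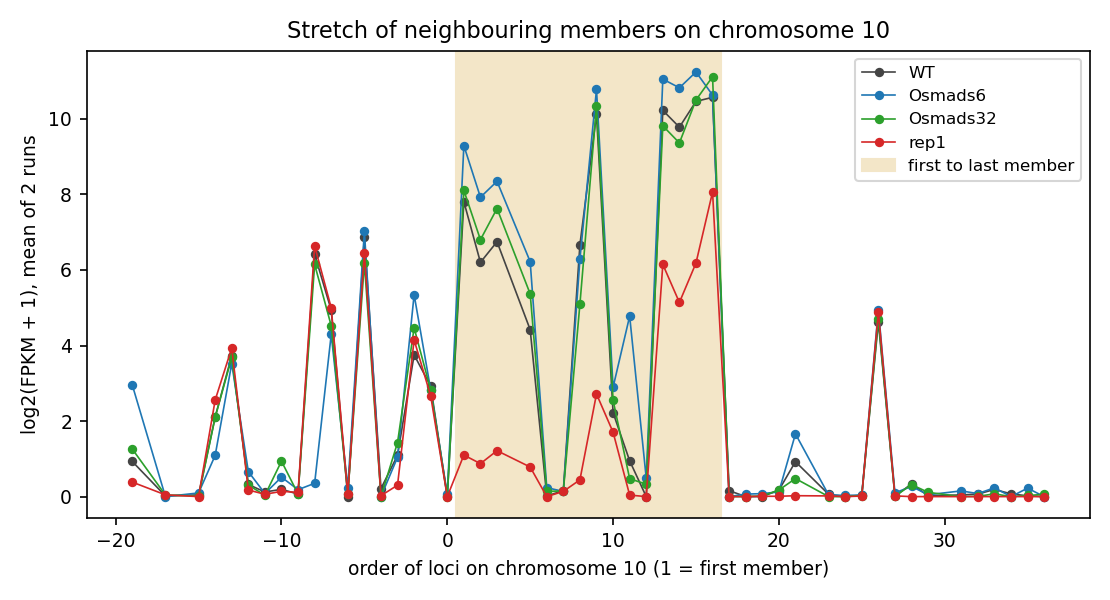
Level of each locus in and around the chromosome 10 stretch as log2(FPKM + 1), mean of 2 runs, against the order of loci counted from the first member, with a line per library and shading from the first to the last member. Inside the shading the rep1 line is below the other 3 at the 10 members. Outside it the lines of the genes kept lie closer together or rep1 is not the lowest by 4-fold on this scale, which hides differences between low values.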

How the data were processed

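RNA sequencing of rice palea was analysed from a table of FPKM values deposited by the authors, with 55986 loci and 2 columns for each of 4 genotypes. Messenger RNA was enriched with beads, per the labels' protocols. The genome build was IRGSP 1.0, per the submitters' processing notes. For the aligner, counting tool and annotation nothing is stated in the labels or headers. The labels list 1 sample per genotype, and the 2 columns, whose origin is not stated, were averaged as runs of 1 sample without a test.

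A gene was kept when its 4 genotype means averaged 1 FPKM or more, and ratios were taken as log2 with a pseudocount of 1 FPKM, which understates differences of low genes. Folds named for a gene divide its mean FPKM values directly. Read numbers were recovered from the steps of the FPKM values, whole within 0.02 reads for 44659 of 44713 genes above 0 (99.9%). The other 54 genes made up 9.43% to 12.5% of each run's FPKM. The recovered numbers are the smallest that fit, so the reads of a gene are known only up to a common factor. Depth and floors rest on these reads, and the steps of the computation were tested on simulated data. Neighbours were counted in the numeric order of locus IDs on each chromosome, since the table is not in genomic order.

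Symbols were paired with loci from published rice nomenclature, as the table gives none. A pair was used for naming when RefSeq (assembly ASM3414082v1) placed the symbol on the chromosome of the locus, with its order kept relative to 90% or more of the remaining pairs, which can miss an exchange of nearby genes. Of 211 pairs 156 passed, 45 had a symbol that did not match, 9 matched another chromosome and 1 was out of order. The symbol of REP1 matched on another chromosome and that of OsMADS32 did not match. Both are named as the targeted genes, with loci from published nomenclature alone.

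The 209 genes, the lists and the named genes were chosen with earlier results of these data known. Named are the targeted genes, members in a list whose pair passed, the 2 unnamed members with the lowest ratios, and list genes with a log2 ratio between -2 and -1. EXPB4, EXPB11, NIP1;1, NRAMP5, SWEET15, CHT4 and list genes outside these ratios were named after their values were seen. Python 3.11.15, numpy 2.4.6, pandas 2.3.3 and matplotlib 3.10.9 were used.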

Additional observations from a re-analysis of the deposited data

How the results depend on the processing

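With 1 sample per genotype, all counts describe these libraries only, and background cannot be told apart from genotype. No paired analysis was possible because the labels carry no replicate numbers and list 1 sample per genotype. Of 407 values recomputed under alternatives, 381 stayed near the value reported and 26 moved. Near means within a fixed fold for counts and within the standard deviation over pairs of runs for medians. Many of the 381 are list counts that were 0 and stayed 0, so that number does not measure how stable the results are. Most of the 407 values are counts, which have no sign, and the exchange of columns given below turned the direction of the Osmads6 counts. A pseudocount of 0.1 took 473 genes, all 209 among them. With that set, the median log2 ratios of rep1 were -3.118 to WT, -3.928 to Osmads6 and -3.146 to Osmads32. Osmads6 was then 2-fold higher than WT for 196 genes and lower for 41, Osmads32 was higher for 32 and lower for 34, 75 genes had a member within 5 loci, and 17 were in the lists. A threshold of 2-fold took 1044 genes and one of 8-fold took 63. Exchanging the columns of WT and Osmads6 gave 209 genes with medians of -3.536 to WT and -2.932 to Osmads6, with 14 genes higher and 73 lower in Osmads6, and 14 higher and 74 lower in Osmads32. Scaling by median ratios took 185 genes, all among the 209, a minimum mean of 5 FPKM took 205, and no minimum took 209. The last count was fixed in advance, since with 1 FPKM added no gene with a mean under 1 FPKM can pass the threshold. An alternative chosen after seeing the data, with the higher rep1 run 4-fold below the lowest of the 6 other runs, took 147. Leaving out each run in turn gave 202 to 231 genes. The medians then ran from -2.977 to -2.929 for WT, -3.583 to -3.474 for Osmads6 and -2.983 to -2.902 for Osmads32. Osmads6 was higher for 68 to 84 genes and lower for 13 to 19, Osmads32 was higher for 6 to 11 and lower for 8 to 12, 22 to 27 genes had a near member, and 11 or 12 were in the lists. Where a value moved, the cause was not tested beyond what the alternative itself sets.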
